A study of Rattus norvegicus with 24 samples.

Results

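The response to 1 Gy of X-rays was measured in rat neurospheres that had received Noggin, by bulk RNA sequencing of 4 irradiated samples (NGy, columns MO17 to MO20) and 4 samples that received Noggin and no radiation (N, columns MO5 to MO8), 8 of the 24 samples of the series. These 8 samples were chosen by their treatment, not by their values. Neurospheres are free-floating aggregates of neural progenitor cells, here taken from Sprague Dawley rats at embryonic day 15. All 8 cultures were pretreated with recombinant Noggin at 5 µM on day 2 after seeding and received it again on day 3, after the time of irradiation. The NGy cultures were irradiated on day 3. The study's results place RNA extraction 7 days after irradiation, while its methods state culture for up to 7 days before analysis. Noggin was thus present on both sides of the comparison, and what differed was the dose of radiation, 1 Gy against 0 Gy. The series holds 6 groups of 4 samples. The others are control neurospheres (C) and neurospheres with 200 µM ascorbic acid (A), each also with 1 Gy (CGy and AGy). They were used here to set the response with Noggin beside the response without pretreatment and the response with ascorbic acid. The labels do not say that samples of a group came from separate animals or cultures, so the p-values measure the spread between these samples only, which may be technical.

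Noggin is a secreted protein that binds bone morphogenetic proteins (BMPs) and keeps them from their receptors. In neural progenitors BMP signaling acts through receptor kinases and Smad transcription factors and is known to favor astrocyte formation over neuron formation, so Noggin is commonly used to hold this route back. Ionizing radiation breaks DNA, activates p53 and stops or kills dividing cells, and neural progenitors are among the most sensitive cells of the brain. The comparison of NGy with N asks which transcripts a single dose moved in the presence of this BMP antagonist. BMP activity itself was not measured in these data.

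Transcript levels are given as TPM, an abundance of transcripts scaled for gene length and for the library's total. Read counts cannot be recovered from TPM, so library depth and counting error are unknown here. The uncorrected table lists 16478 genes by Ensembl identifier with no symbols, and 0 of the identifiers matched the gene names at hand. Known markers of progenitors, astrocytes or neurons, BMP target genes and p53 target genes could therefore not be looked up, and the cell type of the cultures was not checked here. The genes are described by rank, level and behavior, and 4 identifiers are given. In bulk RNA, fewer cells of a type and less RNA per cell cannot be told apart.

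In Noggin-treated neurospheres 284 genes were called between 1 Gy and 0 Gy, and most of them were lower after 1 Gy. The count depended on the irradiated samples used, with 28 calls without MO19 and MO20 and 657 without MO17 and MO18, as described below. The test was limma, a linear model with a moderated variance, on log2(TPM + 1). It covered 9765 genes, those that averaged 1 TPM or more in N or in NGy. A gene was called at a Benjamini-Hochberg adjusted p of at most 0.05 and a change of at least 1.5-fold on this scale, which understates the change of low genes. By this rule 2.91% of the genes tested were called, with 91 rises (0.932%) and 193 falls (1.98%). Rises made up 32.04% of the calls. This split depended on the scaling: rises were 20.3% of 365 calls when the listed genes of each sample were set to the same sum, 46.0% of 261 calls with equal medians and 47.8% of 255 calls after quantile normalization.

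Most of the changes were moderate in size. The rises had a median log2 change of 0.79 and ranged from 0.60 to 3.14, and 20 of the 91 reached 2-fold. The falls had a median of -0.75 and ranged from -0.59 to -2.06, and 33 of the 193 reached 2-fold. Over all genes tested the median change was -0.01, the median size of a change was 0.163 and the median SE was 0.0958. Small changes also passed the test: 1381 genes had an adjusted p of at most 0.05 in limma, 643 higher and 738 lower in NGy, and 1097 of them changed by less than 1.5-fold. Conversely, 316 of the 600 genes with at least a 1.5-fold change missed the adjusted p.

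**Figure D1:**
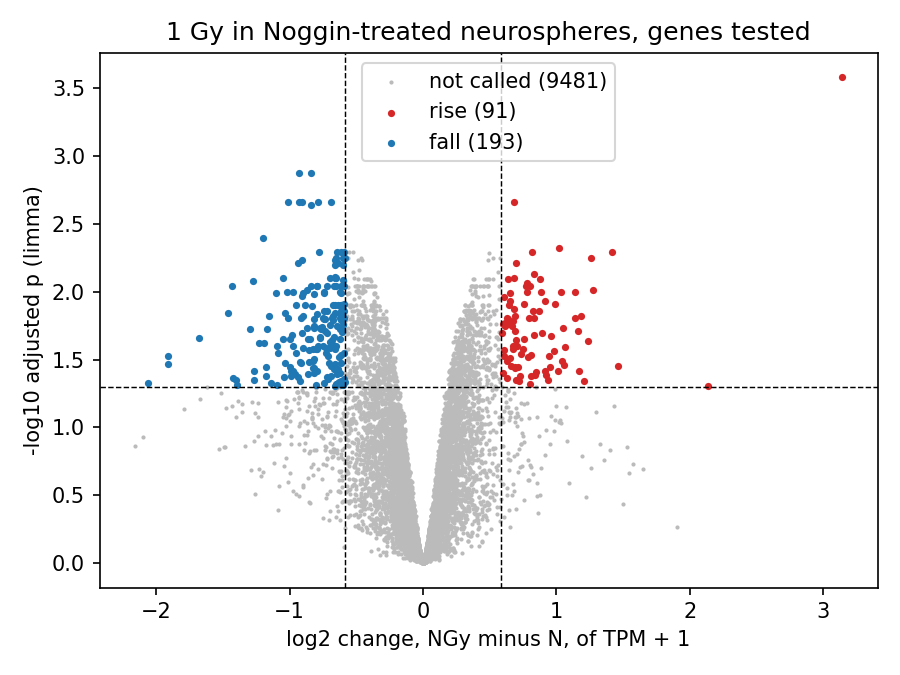
Log2 change of TPM + 1 between NGy and N (x axis) against -log10 of the limma adjusted p (y axis), with each point a gene and dashed lines at 1.5-fold and at an adjusted p of 0.05. The 91 rises (red) reach a log2 change of 3.14, and the 193 falls (blue) reach -2.06.

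The samples of the groups were also compared without a model. All 4 NGy samples lay above all 4 N samples, or all below, in 2276 genes, 23.3% of those tested, with 1100 higher and 1176 lower in NGy. Among the called genes, whose test used the same values, 84 of the 91 rises and 183 of the 193 falls had no overlap. In the remaining called genes at least 1 irradiated sample reached the range of N.

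Called genes tended to be of lower level. The median of the mean TPM was 8.42 for rises, 8.40 for falls and 16.3 for all genes tested. With the genes split by level into 4 bins of equal size, 4.505% were called in the lowest bin (0.603 to 5.36 TPM), and 3.36%, 2.09% and 1.68% in the following bins. The median SE fell from 0.159 to 0.0724 over the same bins. At least 100 TPM were reached by 6 rises and 4 falls, of 924 such genes tested.

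The largest rise belonged to ENSRNOG00000004713, a gene near 0 in all 4 N samples but not in every unirradiated sample of the series. Its TPM in the 4 N samples were 0, 5.31e-09, 6.21e-10 and 6.72e-06, and in NGy 8.26, 6.22, 6.47 and 11.2. Every NGy sample was thus above 6 TPM while no N sample exceeded 6.72e-06 TPM, and no fold is given. Whether the values near 0 were failed estimates was not tested, as no counts were at hand. The change of log2(TPM + 1) was 3.14 (SE 0.16, n = 4 and 4, adjusted p = 0.000265, limma). In cultures without Noggin the gene was at 4.27 to 20.1 TPM in CGy and at 0.374, 0.1497, 13.3 and 0 in C, where MO3 was the high sample. With ascorbic acid it was at 1.59 to 10.1 TPM in AGy and at or below 5.13 in A. The differences were 2.04 for CGy against C (adjusted p = 0.348, limma) and 1.63 for AGy against A (adjusted p = 0.357, limma). The groups overlapped in both of those responses, and did not overlap with Noggin.

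The next largest rise without overlap was ENSRNOG00000043002, at 0, 0.291, 0 and 0 TPM in N and 1.55, 2.59, 1.38 and 2.02 TPM in NGy. It was a low gene that appeared in every irradiated sample and in 1 of the 4 others. The change was 1.42 (SE 0.15, adjusted p = 0.00515, limma), and the differences were 1.15 in CGy against C and 0.76 in AGy against A (adjusted p 0.201 and 0.259, limma). The third was a gene of middle level. It was at 10.8, 17.9, 13.99 and 14.4 TPM in N and 26.4, 33.5, 39.2 and 44.8 TPM in NGy, a change of 1.27 (SE 0.19, adjusted p = 0.00965, limma). This gene was also at 31.8 to 47.2 TPM in CGy and 33.6 to 69.2 TPM in AGy, above every sample of C (10.3 to 28.6) and of A (12.7 to 25.7). The next after it was at 3.35, 2.86, 2.17 and 4.25 TPM in N and at 8.82, 8.87, 8.45 and 8.99 TPM in NGy, where the 4 samples lay within 1 TPM of each other. Its change was 1.26 (SE 0.14, adjusted p = 0.00571, limma).

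The most abundant gene that rose was at 2909, 2989.7, 2963 and 2775 TPM in N and at 3919, 4419, 4919.8 and 4891.5 TPM in NGy. Its mean went from 2909 ± 95.4 to 4537 ± 472 TPM (SD, n = 4), a log2 change of 0.64 (SE 0.08, adjusted p = 0.00810, limma). The next 4 by level went from mean TPM of 378 to 763, 222 to 446, 214 to 400 and 122 to 192. The TPM of the 91 rises summed to between 4617 and 5013 in the N samples and to 6758, 7944, 8786 and 8742 in MO17 to MO20. The first of these genes supplied more of that sum than all the other rises together in N.

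The largest fall was in ENSRNOG00000039902, at 56.8, 42.5, 42.0 and 44.0 TPM in N and 2.30, 15.1, 9.75 and 26.8 TPM in NGy. No NGy sample reached the N range, but the 4 irradiated samples were far apart. The change was -2.06 (SE 0.57, adjusted p = 0.0469, limma). The adjusted p was above 0.05 in 10 of 19 other settings, with values up to 0.105, among them leaving out any 1 of MO5, MO6, MO7, MO8, MO18 or MO19. In the other responses the differences were -0.70 (CGy against C) and -0.13 (AGy against A).

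The next largest fall without overlap was at 29.5, 29.5, 22.6 and 32.1 TPM in N and 12.1, 14.7, 2.32 and 4.28 TPM in NGy (log2 change -1.91, SE 0.47, adjusted p = 0.0342, limma). MO19 and MO20 were the lower samples here. In CGy the same gene was at 19.3 and 16.4 TPM in MO13 and MO14B and at 2.58 and 1.08 TPM in MO15 and MO16. The 2 falls that followed in size had the same form in NGy. The larger was at 25.9 to 49.1 TPM in N and 21.6, 11.5, 5.21 and 4.42 TPM in MO17 to MO20. The other was at 36.1 to 52.0 TPM in N and 19.1, 23.8, 7.01 and 9.32 TPM in MO17 to MO20. In both, MO19 and MO20 were below MO17 and MO18. The most abundant gene that fell was at 340, 316, 350 and 358 TPM in N and 233, 211, 164 and 184 TPM in NGy, a change of -0.79 (SE 0.11, adjusted p = 0.00911, limma). Its levels were also lower in every CGy sample (251 to 289 TPM) than in C (327 to 397), and lower in AGy (213 to 254) than in A (335 to 386). The TPM of the 193 falls summed to 4605 to 5135 in N and to 3078, 3214, 2330 and 2443 in MO17 to MO20.

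**Figure D2:**
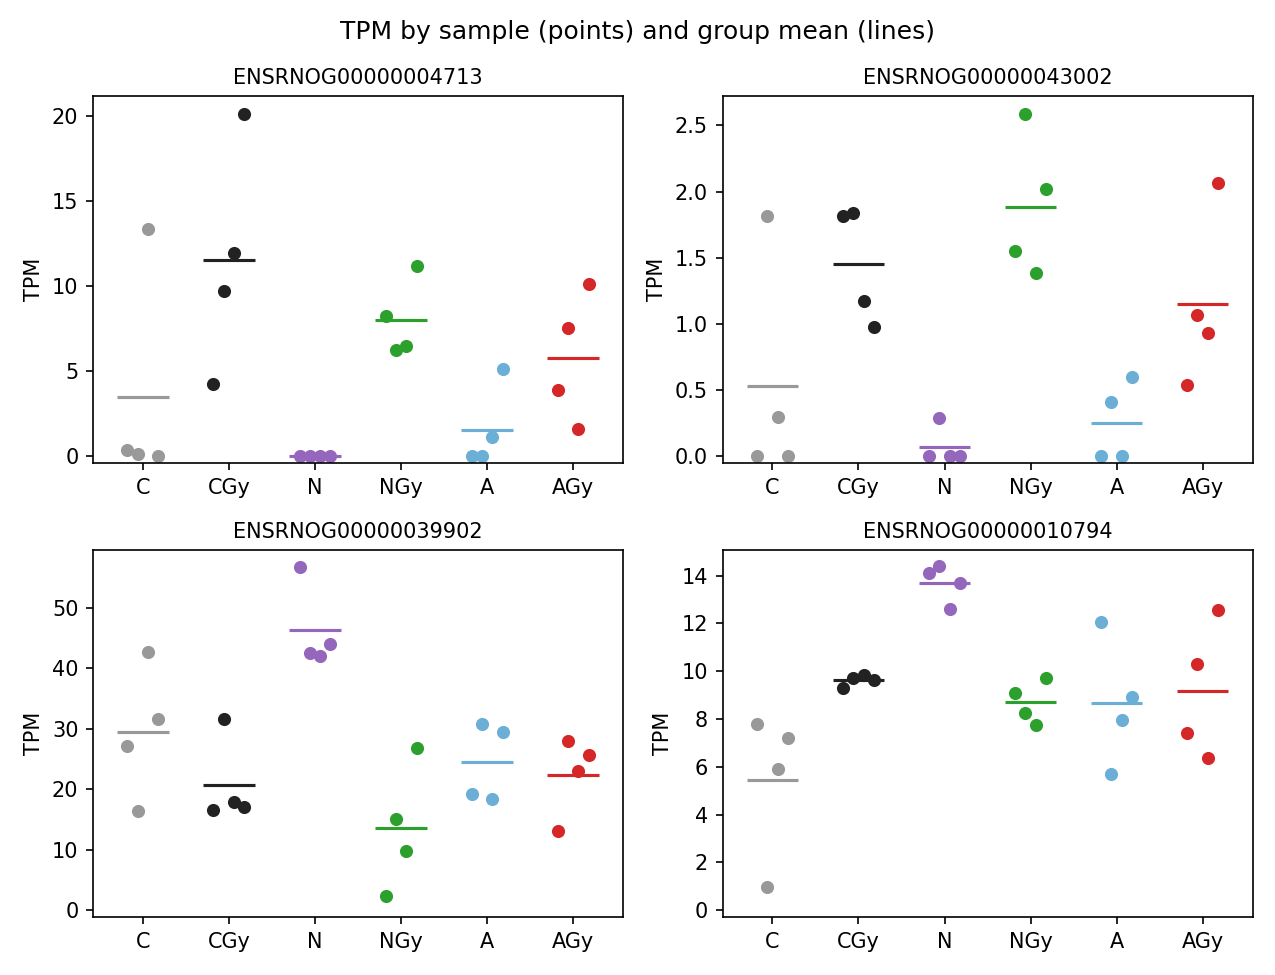
TPM of the 4 genes given by identifier in each sample (points) of the 6 groups (x axis), with the group mean as a line. ENSRNOG00000004713 is near 0 in all 4 N samples and at 6.22 to 11.2 TPM in NGy, and ENSRNOG00000010794 is lower in NGy than in N while CGy is above C.

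The 4 irradiated samples were not alike. Over the genes tested the first principal component of the 8 samples held 39.5% of the variance and separated the groups, with N at -17.0, -19.0, -8.77 and -13.8 and NGy at 3.14, 4.73, 25.3 and 25.4 (MO17 to MO20). MO17 and MO18 thus lay between N and the pair MO19 and MO20. Sample distances, as the root mean square of log2(TPM + 1) differences over genes, were 0.299 between MO17 and MO18 and 0.267 between MO19 and MO20, and up to 0.405 between samples of the 2 pairs. Samples of N differed from each other by 0.318 to 0.373, from MO17 and MO18 by 0.387 to 0.420 and from MO19 and MO20 by 0.432 to 0.514.

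**Figure D3:**
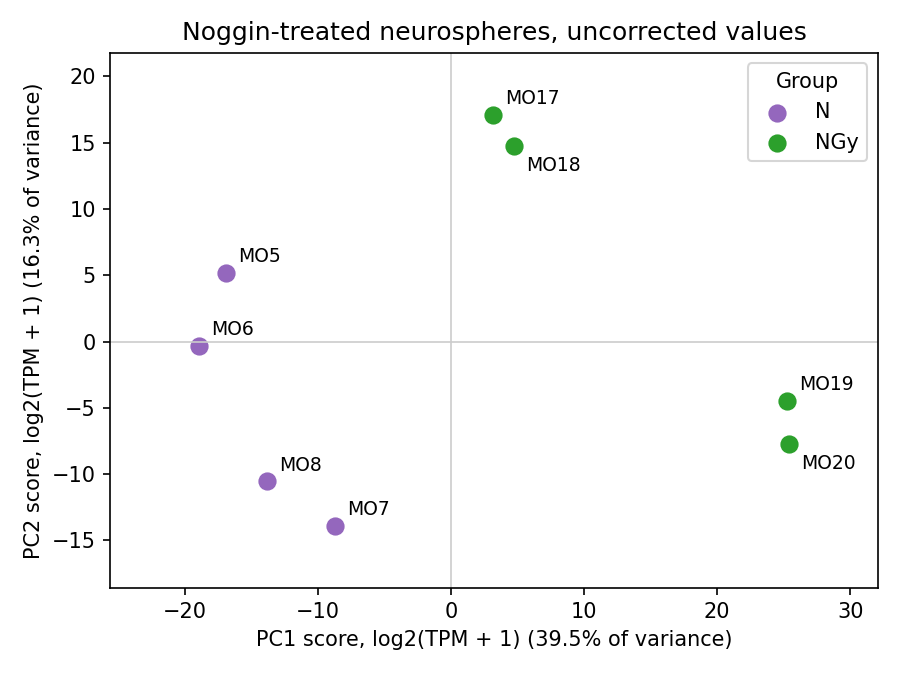
Scores of the 8 Noggin-treated samples on the first (39.5% of variance, x axis) and second (16.3%, y axis) principal components of log2(TPM + 1). NGy (green) lies to the right of N (purple), with MO17 and MO18 near 0 on the first component and MO19 and MO20 at 25.3 and 25.4.

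The pairs differed in their distance from N in the called genes. MO19 and MO20 were both beyond MO17 and MO18 in the direction of the change in 122 of the 193 falls (63.2%) and 42 of the 91 rises (46.2%). Over all genes tested they were both lower in 23.7% and both higher in 35.2%. The same order appeared in the irradiated controls. In 106 of those 122 falls MO15 and MO16 were both below MO13 and MO14B in CGy, and over all genes in which MO19 and MO20 were lower this held for 59.6%. In 30 of those 42 rises (71.4%) MO15 and MO16 were both above MO13 and MO14B, against 56.6% of all genes in which MO19 and MO20 were higher. The called genes' count followed these samples. Without MO19 and MO20, 28 genes were called (5 rises, 23 falls), and without MO17 and MO18, 657 (182 rises, 475 falls). These sets of samples were chosen after the values were seen. Leaving out 1 sample at a time gave 149 (MO19), 150 (MO20), 161 (MO8) and 176 (MO6) calls at the low end, and 222 to 341 for the others. The labels name no batch for these columns, while the study's methods mention possible batch effects, which its corrected table was made to remove. In that table the pairs no longer stood apart over the 284 genes: the mean log2 change from N, with the sign of the falls turned, was 0.837, 0.857, 0.842 and 0.827 in MO17 to MO20, against 0.695, 0.712, 0.985 and 0.977 in the uncorrected values. The source of the difference between the pairs was not tested.

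In the batch-corrected table the comparison called 460 of 9756 genes (4.72%), 129 rises and 331 falls, which included all 284 of the uncorrected calls. The other 176 had an adjusted p of 0.0502 to 0.294 in limma before correction. The median SD of a gene within NGy was 0.129 before and 0.0868 after correction, and within N 0.131 and 0.121. Correction thus went with a smaller spread within groups. It is known from earlier results of these data to use the group labels. The calls kept and gained in the corrected table are therefore not separate support for the uncorrected calls. In the genes given by identifier, differences between groups changed little or not at all. ENSRNOG00000004713 changed by 3.14 before and 3.03 after correction, and ENSRNOG00000043002 by 1.42 and 1.41. ENSRNOG00000039902 changed by -2.06 and ENSRNOG00000010794 by -0.60, both before and after.

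Some measures of the libraries also differed between the groups, each without overlap. The listed genes summed to 615930 to 628348 TPM in N and to 650049 to 655264 TPM in NGy, so the share of all TPM that was not listed was 37.2 to 38.4% in N and 34.5 to 35.0% in NGy. Genes at 1 TPM or more numbered 9529 to 9627 in N and 9386 to 9497 in NGy. Genes at 0 numbered 3892 to 4042 in N and 3654 to 3796 in NGy. Each of the 3 had a 2-sided exact permutation p of 0.0286, the smallest that 70 splits of 4 and 4 samples allow, and an adjusted p of 0.0286 over the 3. The part of these differences in the gene results was not tested, apart from the scalings given above.

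The genes that moved with Noggin moved the same way in most cases in the other irradiated cultures, whose samples took no part in choosing them. The samples were still not independent across groups. Deviations from the group mean in MO19 and MO20 correlated with those in MO15 and MO16 at r = 0.37 to 0.41. With MO13 and MO14B they correlated at -0.41 to -0.33. The part of these deviations in the shared direction was not tested. Of the 87 rises tested in CGy against C (without MO2, which the study removed), 75 were higher in CGy, with a median log2 difference of 0.56. Of 190 falls, 163 were lower, with a median of -0.27. The lower level of the falls lay mostly in MO15 and MO16. Relative to N, the mean of the 193 falls was -0.27, -0.36, -0.86 and -0.80 in MO13, MO14B, MO15 and MO16. It was -0.16, -0.35 and -0.32 in MO1, MO3 and MO4. The mean of the 91 rises was 0.37 to 0.72 in CGy, above MO1, MO3 and MO4 (-0.17 to 0.23). Among all genes tested in both, 68.6% of those higher in NGy were higher in CGy and 52.1% of those lower in NGy were lower in CGy. An unadjusted p under 0.05 in the same direction was reached by 45 of the rises (51.7%) and 37 of the falls (19.5%). Among all genes tested in both, the shares were 15.1% of those higher and 8.81% of those lower in NGy, and in either direction 14.6% of the genes tested in CGy against C were under that p. With ascorbic acid, 74 of 84 rises were higher in AGy than in A (median 0.41) and 172 of 189 falls were lower (median -0.35), beside 69.7% and 73.0% of all genes. In the same direction, 33 rises (39.3%) and 87 falls (46.03%) had an unadjusted p under 0.05, against 9.63% of all genes higher and 13.4% of all genes lower in NGy, and 12.7% of the genes tested in either direction. Over all genes the log2 changes correlated with r = 0.42 (CGy against C, 9589 genes) and 0.53 (AGy against A, 9562 genes), across genes that are not independent of each other.

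The median changes of the falls were smaller in both other responses than the -0.76 they had with Noggin. The genes were selected in NGy against N, which enlarges their values there, so these medians do not compare the strength of the responses. By the same call rule, CGy against C gave 2 of 9782 genes (0.0204%) and AGy against A gave 0 of 9859 (0%, with 1256 genes at an unadjusted p under 0.05) in the uncorrected values, and 657 (6.73%) and 102 (1.04%) in the corrected table. Such counts depend on the spread within groups and the number of samples as well as on the size of the changes, and C was without MO2. They therefore do not compare the strength of the responses either. Among the corrected calls were 38 of the Noggin rises and 29 of the falls in the same direction for CGy, with 1 in the opposite direction, and 18 rises and 19 falls for AGy.

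**Figure D4:**
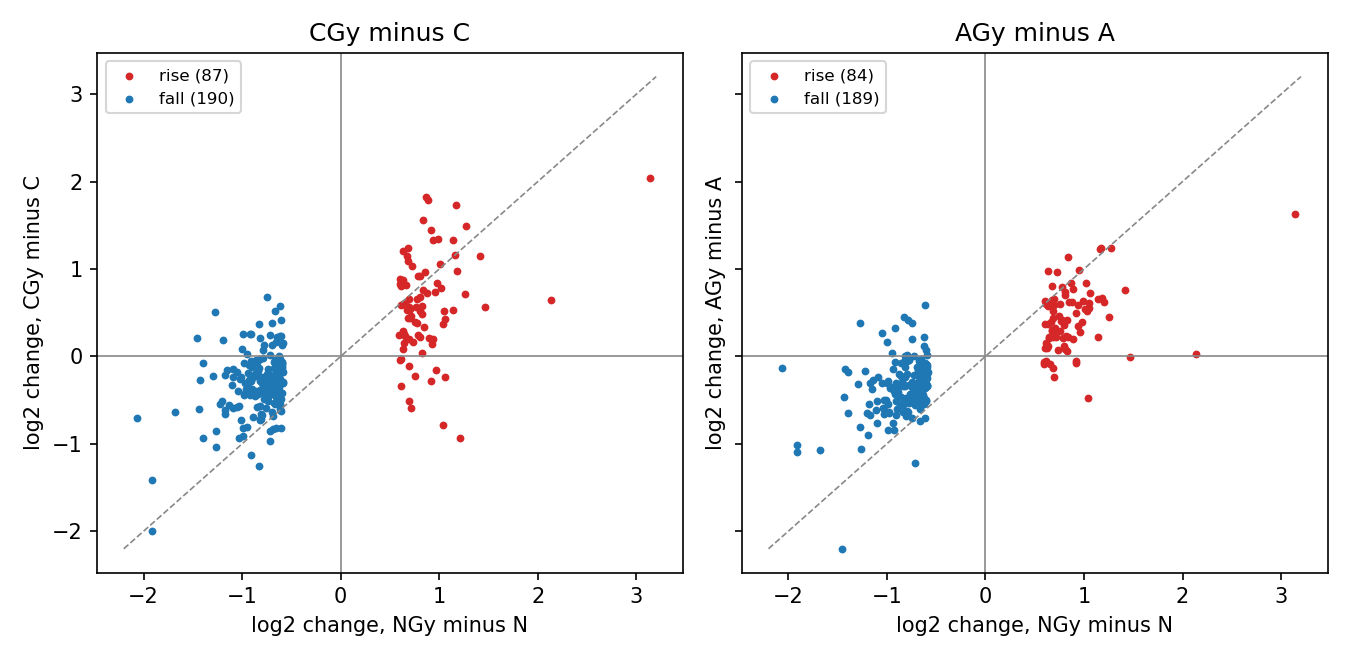
Log2 change of each called gene in NGy against N (x axis) and in CGy against C (left, y axis) or AGy against A (right, y axis), with rises in red and falls in blue, and a dashed line of equal change. In CGy 75 of 87 rises and 163 of 190 falls keep their direction, and in AGy 74 of 84 and 172 of 189.

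Each sample of the series was also placed on the Noggin response by its mean log2(TPM + 1) over the 284 genes relative to the mean of N, with the sign of the falls turned. NGy lay at 0.70, 0.71, 0.99 and 0.98 (MO17 to MO20) and N at -0.03 to 0.06, as the choice of genes fixes. CGy lay at 0.30, 0.47, 0.81 and 0.75 (MO13, MO14B, MO15 and MO16) and C at 0.12, 0.79, 0.31 and 0.16 (MO1 to MO4). AGy lay at 0.37 to 0.71 and A at 0.09 to 0.28. Apart from MO2, every irradiated sample with ascorbic acid was above every sample of A and C. In the uncorrected values CGy overlapped C through MO13, which lay just below MO3. In the corrected table, which leaves out MO2, they did not overlap, with CGy at 0.44 to 0.70 and C at 0.19 to 0.21. That correction used the group labels, so this separation is not separate support. MO2, the control that the study removed, had a value within the range of NGy, but on this mean over genes through the falls alone. Its mean over the falls was -1.08, beyond every NGy sample (-1.01 to -0.65). Over the rises its mean was 0.18, below NGy (0.70 to 0.99) and within the other C samples (-0.17 to 0.23). The summed TPM of the rises, in which abundant genes weigh most, was 10071 in MO2, above every NGy sample (6758 to 8786).

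**Figure D5:**
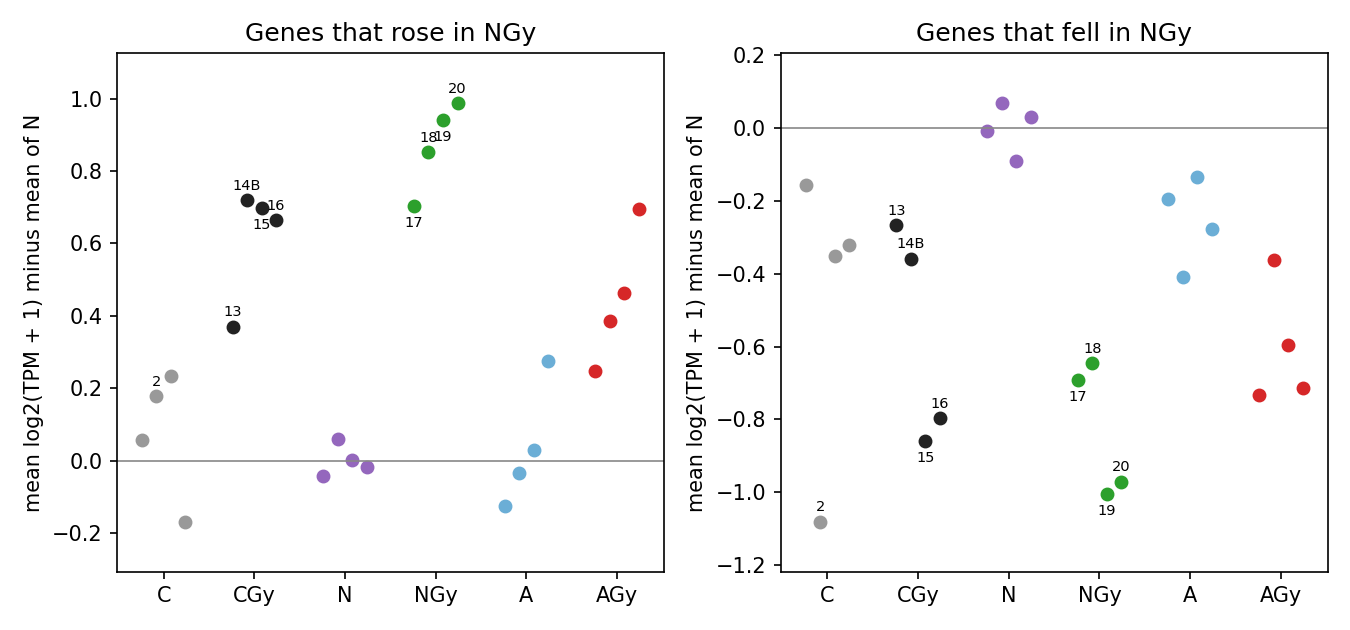
Mean log2(TPM + 1), relative to the mean of N, of the 91 rises (left) and the 193 falls (right) in each of the 24 samples (points, with the number of the MO column for MO2 and for CGy and NGy), by group on the x axis. In the falls MO19 and MO20 lie below MO17 and MO18, as MO15 and MO16 lie below MO13 and MO14B, and MO2 lies far below the other C samples.

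Whether the response to 1 Gy differed with Noggin was tested as an interaction, the change in NGy against N minus the change in CGy against C. One of 9958 genes (0.01%) had an adjusted p of at most 0.05 in limma, with 1648 at an unadjusted p under 0.05 and a median SE of the difference of 0.175. The gene was ENSRNOG00000010794, at 14.1, 14.4, 12.6 and 13.7 TPM in N and 9.07, 8.27, 7.75 and 9.72 TPM in NGy. In control cultures it was at 7.79, 0.956, 5.89 and 7.22 TPM in C (MO1 to MO4) and 9.30 to 9.85 TPM in CGy. It fell in NGy by 0.60 on the log2 scale (SE 0.08, adjusted p = 0.00818, limma) and differed by 0.42 in CGy against C (adjusted p = 0.314, limma), a difference between the responses of -1.02 (SE 0.12, adjusted p = 0.0133, limma). The irradiated groups lay close together, and the groups without radiation lay apart. Its fall with Noggin was under 1.5-fold or missed the adjusted p in 6 of 19 other settings. No gene differed with MO2 included or with all 6 groups in a single fit, and leaving out 1 sample gave 0 to 3 genes. After batch correction 2392 of 9936 genes (24.1%) passed, in values whose spread within groups the correction had reduced. The fit took all samples as independent, so its SE does not account for the deviations that NGy samples shared with CGy samples. A p above the threshold does not show that the responses with and without Noggin were equal.

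Against ascorbic acid, the change in NGy against N minus the change in AGy against A, 0 of 10062 genes (0%) passed in limma, with 645 at an unadjusted p under 0.05, a lowest adjusted p of 0.695 and a median SE of 0.164. The corrected table gave 24 of 10050 genes (0.239%). A p above the threshold does not show that the responses with Noggin and with ascorbic acid were equal.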

How the data were processed

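The deposited TPM table of all 24 samples was made by the authors with kallisto, and STAR 2.6.1 and the rat build Rn7 are also named for these 85-base reads, which the study describes both as single and as paired. A second deposited table, of 23 samples without MO2, was batch-corrected by the authors with NOISeq. The deposited score values were made by the authors by this correction and equal the corrected TPM + 1 divided by 2, so TPM were taken as 2 times the score minus 1, with negative values set to 0. Columns were matched to groups by the study's identifiers but not to single label entries, and no per-sample column was left out.

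Log2(TPM + 1) was compared with limma 3.58.1 (lmFit, eBayes) in R 4.3.3, fitting the compared groups alone, for genes that averaged 1 TPM or more in any of them, and p-values were Benjamini-Hochberg adjusted over all genes tested. Calls needed an adjusted p of at most 0.05 and 1.5-fold; interactions needed the adjusted p only. Sample measures were tested by exact permutation with scipy 1.17.1, and matplotlib 3.10.9 made the plots. The scripts were tested on simulated data first.

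The members, lists and tests were chosen with earlier results of these data known. Planned lists of symbols (cell type markers, BMP and p53 genes) were not used because 0 of 16478 identifiers matched the RefSeq GRCr8 gene table. By the rule for that case, at most 2 identifiers that rose and 2 that fell are given. These are the largest 2 rises and the largest fall among called genes without overlap between groups, and the gene called in the interaction. Others are given by rank of change or level. Alternatives were the corrected table, other pseudocounts, filters, scalings and variance models, and leaving out samples. TPM hold no counts, so the spread between samples is the only measure of precision.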

Additional observations from a re-analysis of the deposited data

Results flagged for a closer look

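In groups of 4 samples, a sample was marked when its gap to the nearest other sample, divided by the range of its group, exceeded Dixon's 95% critical value for 4 samples. Of 57 groups tested 7 were marked, and chance marks about 1 in 20. Of the genes given by identifier, ENSRNOG00000043002 was marked in N (ratio 1.0), where 0.291 TPM stood against 0 in the other samples, and in C (0.836), where MO2 was high. ENSRNOG00000039902 was marked in N (0.868), where MO5 was high at 56.8 TPM, and in CGy (0.909), where MO14B was high at 31.6 TPM. ENSRNOG00000004713 was marked in C (0.972), where MO3 was high at 13.3 TPM. The summed TPM of the 91 rises was marked in CGy (0.854), and the sum of the listed genes was marked in AGy (0.857). The response to 1 Gy differed with and without Noggin in ENSRNOG00000010794, by a log2 difference of -1.02 in the limma interaction (adjusted p = 0.0133). It was the gene with the lowest interaction p. With MO2 included, or with all 6 groups in a single fit, 0 genes were called.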

How the results depend on the processing

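The count of 284 genes in NGy against N stayed within 1.5 times its value in 12 of 20 alternatives. It was 460 in the batch-corrected table, 1381 by adjusted p alone, 28 without MO19 and MO20 and 657 without MO17 and MO18, the last 2 chosen after seeing the data. Leaving out 1 sample gave 149 to 341. The interaction with control cultures, 1 gene, became 2392 genes in the corrected table, 0 with all 6 groups in a single fit and 0 with MO2 included, and 0 to 3 when 1 sample was left out, with 1058 to 2608 genes at an unadjusted p under 0.05. The interaction with ascorbic acid, 0 genes, became 24 in the corrected table and was 0 in the other 20 alternatives. Of the genes given by identifier, none changed direction. ENSRNOG00000004713 kept its call in 19 of 19 alternatives (highest adjusted p 0.00963, limma) and ENSRNOG00000043002 in 18 of 18. ENSRNOG00000039902 lost it in 10 of 19 and ENSRNOG00000010794 in 6 of 19. The causes were not tested. No paired analysis was run, because the columns carry no replicate number shared between groups. The fits therefore do not account for the deviations shared across groups that are given below. Without counts, depth could not be used to weigh low genes.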

Other observations

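Deviations from the group mean were shared across groups. Over the 9765 genes, MO19 and MO20 correlated with MO15 and MO16 of CGy at r = 0.37 to 0.41 and with MO13 and MO14B at -0.41 to -0.33. MO17 and MO18 correlated with MO13 and MO14B at 0.30 to 0.42 and with MO15 and MO16 at -0.42 to -0.34. MO7 of N correlated with MO19 and MO20 at 0.15 to 0.24 and with MO17 and MO18 at -0.22 to -0.15. NGy samples correlated with AGy samples at -0.15 to 0.15. Deviations from the mean of 4 samples sum to 0 within a group, so values of opposite sign within it are partly built in.

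In 1 gene tested all 4 NGy samples were listed at 0 and all 4 N samples were above 0, and in 0 genes was the reverse seen. An exact 0 in such a table can be a failed estimate.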
